A study of Mus musculus with 8 samples.

Results

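The endoplasmic reticulum (ER) folds the proteins that a cell secretes, and 40 genes of its chaperones, folding enzymes and degradation pathway (ERAD) were followed here by gene symbol. Of the 40, 39 were found among the 16888 genes of the table and all 39 were expressed highly enough to be tested, while Fkbp2 was not analysed here. The samples were whole pancreas after repeated cerulein injection, which drives acinar cells to secrete beyond their capacity and is a standard mouse model of acute pancreatitis. In 4 samples (CKO1 to CKO4) the mice carried a myeloid-specific knockout of Anxa1, the gene of the anti-inflammatory protein annexin A1, and in 4 samples (WT1 to WT4) they were Anxa1 flox/flox. Both groups received cerulein, and no uninjected pancreas was analysed here. No source used here gives the Cre driver, the age of the mice or the number of animals behind a sample, so p-values measure the spread between samples. The comparison asks what the loss of Anxa1 from myeloid cells does to gene expression in the inflamed pancreas.

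Acinar cells, which make the digestive enzymes, have one of the heaviest secretory loads of any cell type and a correspondingly large ER. When unfolded proteins accumulate, the ER membrane sensors IRE1 (gene Ern1), ATF6 and PERK start the unfolded protein response: IRE1 splices the Xbp1 mRNA, ATF6 is cut to release a transcription factor, and both raise chaperone and ERAD genes, while PERK slows translation and favours ATF4. ERAD recognises proteins that fail to fold, moves them back to the cytosol and hands them to the proteasome.

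Among the 39 genes, Fkbp11 and Ern1 were higher in CKO pancreas, 1.58-fold and 1.79-fold, and no other member passed the threshold. Of all tested genes 1.42% passed as higher and 5.74% as lower. The Fkbp11 call held when any single library was left out. The Ern1 groups overlapped, and the Ern1 call was lost without CKO2, CKO4, WT1, WT2 or WT4. Herpud1 had the largest difference in means, 2.55-fold, but varied 3.34-fold among the CKO libraries and did not pass. The most abundant folding genes, Pdia2, Hspa5 and P4hb, did not pass either. The log2 change was above 0 for 28 of the 39, where 29.6% of all tested genes were above 0. For the other 11 it was below 0, with the lowest values for Dnajc10, Pdia4 and Pdia3.

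The promoters of these genes are known for the ER stress response element (ERSE), which ATF6 binds with NF-Y, and its shorter relative ERSE-II. Of the 39 members, 35 had a promoter window in RefSeq (GRCm38.p6, 250 bases before to 50 after a start site), and 10 of the 35 (28.6%) held the ERSE letters on either strand, which are CCAAT, 9 bases of any kind and CCACG. Over all 32851 windows the share was 0.119%, and of the 6869 tested genes with a window 13 (0.189%) held it, so 10 of those 13 were members. The ERSE was defined on promoters of Hspa5, Hsp90b1 and Calr, so its presence in these genes is background and not a result. The matches are shown because they are the letters that the ER stress genes share, each read 5′ to 3′ along the motif with its fixed letters in capitals. They lie on the strand opposite to the gene in Calr, Creld2, Derl3, Ero1b and the second match of Hsp90b1.
Hspa5 (chr2:34772025-34772043): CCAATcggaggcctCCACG
Hsp90b1, first (chr10:86705638-86705656): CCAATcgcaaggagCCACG
Hsp90b1, second (chr10:86705533-86705551): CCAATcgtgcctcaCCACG
Calr (chr8:84847075-84847093): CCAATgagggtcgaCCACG
Canx (chr11:50325800-50325818): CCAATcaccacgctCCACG
Dnajc3 (chr14:118937827-118937845): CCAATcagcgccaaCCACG
Pdia6 (chr12:17266491-17266509): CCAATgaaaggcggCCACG
Ero1b (chr13:12565682-12565700): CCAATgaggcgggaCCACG
Creld2 (chr15:88819520-88819538): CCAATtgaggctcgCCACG
Syvn1 (chr19:6046532-6046550): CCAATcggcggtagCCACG
Derl3 (chr10:75893242-75893260): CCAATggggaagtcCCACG

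The 120 bases before the start site are shown for the most abundant chaperone gene (Hspa5), for Herpud1 with the largest difference, and for both genes past the threshold, on the strand of the gene with ERSE and ERSE-II letters in capitals. Fkbp11 has another start site in RefSeq, and its upstream one is shown.
Hspa5 (chr2:34771970-34772089, plus strand): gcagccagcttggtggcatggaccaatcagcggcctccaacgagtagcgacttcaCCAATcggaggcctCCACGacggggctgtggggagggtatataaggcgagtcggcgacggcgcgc
Herpud1 (chr8:94386309-94386428, plus strand): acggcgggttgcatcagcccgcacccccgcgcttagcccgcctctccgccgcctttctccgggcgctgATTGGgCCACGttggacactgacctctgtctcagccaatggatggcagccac
Fkbp11 (chr15:98728199-98728318, minus strand): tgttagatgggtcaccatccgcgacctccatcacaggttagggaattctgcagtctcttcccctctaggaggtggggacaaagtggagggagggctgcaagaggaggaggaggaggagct
Ern1 (chr11:106487797-106487916, minus strand): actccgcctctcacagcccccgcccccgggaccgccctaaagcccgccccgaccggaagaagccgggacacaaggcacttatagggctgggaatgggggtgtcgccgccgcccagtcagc

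ERSE-II (ATTGG, 1 base of any kind and CCACG, either strand) was found in the windows of Herpud1 and Dnajb11, or 5.71% of the members with a window, against 0.0873% of tested genes with a window and 0.0365% of all windows. The XBP1 and ATF6 core TGACGTGG was found in Txndc5, Txndc11 and Vcp, or 8.57% of the members with a window, against 1.09% of tested genes with a window and 0.676% of all windows. The ATF4 and CHOP type element TGATGNAAN was found in Herpud1 and Txndc5, or 5.71% of the members with a window, against 2.82% of tested genes with a window and 3.95% of all windows. The letters CCAAT and CCACG are part of the longer motifs, so these searches overlap. No ERSE, ERSE-II or TGACGTGG letters were found in the windows of Fkbp11 or Ern1, which says only that they are not in those windows.

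The series as a whole held 34126009 to 34359802 recovered reads in CKO1 to CKO3, 31584517 in CKO4, and 30469002 to 32112760 in WT. At that depth, 3 reads on a gene of 1 kb came to 0.0873 to 0.0985 RPKM, and each member had between 238 and 75307 reads in a CKO library and between 303 and 63826 in a WT library. Anxa1 was at 4.84, 4.76, 5.21 and 7.13 RPKM in CKO1 to CKO4, against 8.44, 14.7, 7.05 and 9.74 RPKM in WT1 to WT4, so its transcripts were present in every library and the groups overlapped by WT3. Acinar markers took 50.27% to 58.22% of the reads in CKO and 51.24% to 54.44% in WT. All tested genes together had a median log2 change of -0.12, against which the members' differences are read. Over all 8513 genes 121 were higher and 489 lower in CKO, or 305 and 267 after median centring. In whole tissue, fewer cells of a type and less RNA per cell cannot be told apart.

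Of the 39 members 2 rose and 0 fell (limma, adjusted p under 0.05), where 7.17% of all tested genes passed, 1.42% as higher and 5.74% as lower. At an unadjusted p under 0.05, 7 members were higher and 3 lower, where 27.3% of all tested genes passed, 4.6% as higher and 22.7% as lower. The limma-voom fit also called 2 higher and 0 lower. The log2 change was above 0 for 28 of the 39 members and for 29.6% of all tested genes, and its median was 0.15 for the members and -0.12 for all genes. All 4 CKO libraries lay above all 4 WT libraries for 5 members (Fkbp11, Dnajb9, Pdia6, Txndc5 and Ero1b), where 2.46% of all tested genes did so. They lay below for 3 members (Dnajc10, Pdia4 and Edem1), where 16.2% of all tested genes did so.

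**Figure D1:**
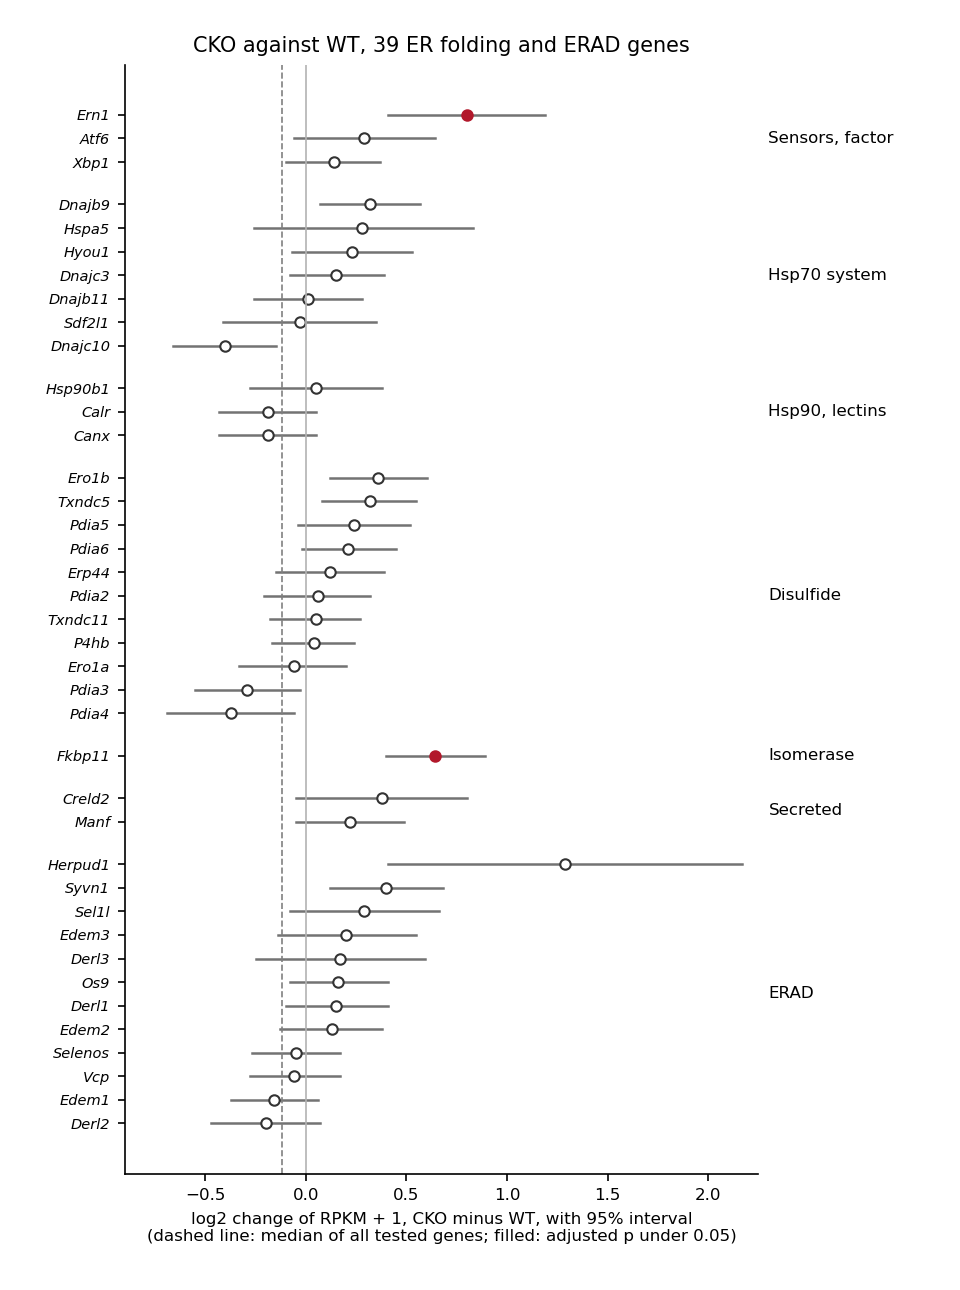
Log2 change of RPKM + 1, CKO minus WT, for the 39 members grouped by role, with 95% intervals from limma and n = 4 per group; filled points passed an adjusted p of 0.05 and the dashed line is the median of all tested genes. Ern1 (0.80) and Fkbp11 (0.64) are filled, Herpud1 (1.29) has the widest interval, and most other members lie to the right of the dashed line.

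The sensors and their transcription factor came first. Ern1 (chromosome 11, 106394650 to 106487852, minus strand of mm10) encodes IRE1, the kinase and endonuclease that senses unfolded protein. It was measured at 14.2, 20.6, 20.5 and 20.4 RPKM in CKO1 to CKO4, against 11.5, 7.74, 14.3 and 8.78 RPKM in WT1 to WT4. CKO2, CKO3 and CKO4 stood together above all WT libraries, while CKO1 lay level with WT3. The log2 change was 0.80 (SE 0.18, limma adjusted p = 0.0251). The call was lost without CKO2 (adjusted p = 0.0697), CKO4 (0.0715), WT1 (0.0511), WT2 (0.0585) or WT4 (0.0663), and with no filter on low values (0.064).

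Atf6, the gene of the sensor that is itself released as a transcription factor, was at 5.09, 7.52, 7.59 and 8.69 RPKM in CKO1 to CKO4, against 6.02, 5.22, 6.99 and 4.54 RPKM in WT1 to WT4. As with Ern1, CKO1 lay among the WT libraries and the other CKO libraries above them. The log2 change was 0.29 with an interval of -0.06 to 0.64 (adjusted p = 0.265).

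Xbp1, whose mRNA IRE1 cuts to make the active factor, was among the most abundant members, at 248, 272, 291 and 218 RPKM in CKO1 to CKO4, against 230, 220, 242 and 238 RPKM in WT1 to WT4. CKO4, the library with the most Hspa5 and Herpud1, had the least Xbp1 of all 8. The log2 change was 0.14 with an interval of -0.10 to 0.37 (adjusted p = 0.43). IRE1 cuts at the letters CNGCAGN, and in 3 protein-coding Xbp1 transcripts of GENCODE M21 (chromosome 11, plus strand) a pair of these sites lay 26 bases apart around the segment that IRE1 removes (Xbp1-201 also held another such pair nearer its start). It is shown with the removed bases in capitals, at positions 815 to 840 of transcript Xbp1-201.
Xbp1: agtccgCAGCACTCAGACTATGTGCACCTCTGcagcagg
The table gives 1 value per gene, so mRNA with and without these bases cannot be told apart, and the Xbp1 level is not a measure of splicing.

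Hspa5 (chromosome 2, 34771970 to 34777547, plus strand) encodes BiP, the Hsp70 chaperone of the ER that also holds the sensors inactive. BiP transcripts were at 375, 636, 626 and 878 RPKM in CKO1 to CKO4, against 493, 345, 612 and 575 RPKM in WT1 to WT4. The range of the CKO libraries contained nearly all of the WT range, with CKO1 low and CKO4 highest. The log2 change was 0.28 with an interval of -0.26 to 0.83 (adjusted p = 0.481), so a difference of the size seen for Fkbp11 lies inside it.

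The helpers of BiP differed among themselves. Dnajb9 (ERdj4), a J protein that directs BiP to misfolded clients and to IRE1, was at 26.3, 24.9, 24.1 and 31.7 RPKM in CKO1 to CKO4, against 18.9, 21, 22.2 and 22.5 RPKM in WT1 to WT4, without overlap (log2 change 0.32, SE 0.12, adjusted p = 0.101). Dnajc10 (ERdj5), a J protein with reductase activity that opens disulfides of proteins bound for degradation, went the other way. It was at 4.66, 4.03, 5.25 and 4.09 RPKM in CKO1 to CKO4, against 5.7, 6.77, 6.54 and 6.01 RPKM in WT1 to WT4, also without overlap (log2 change -0.40, SE 0.12, adjusted p = 0.0577). Its adjusted p was 0.0401 without CKO3 and 0.0661 to 0.145 without any other single library. The nucleotide exchange factor Hyou1, the J proteins Dnajc3 and Dnajb11, and Sdf2l1, a partner of Dnajb11, had log2 changes of -0.03 to 0.23. Sdf2l1 averaged 9.32 ± 3.16 RPKM in CKO and 9.2 ± 0.471 RPKM in WT (SD, n = 4 each), with 13.8 RPKM in CKO4 alone.

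Hsp90b1, the Hsp90 chaperone of the ER (GRP94), was at 61.1, 77.4, 74.4 and 88 RPKM in CKO1 to CKO4, against 58.3, 65.1, 92.8 and 76.1 RPKM in WT1 to WT4. WT3 was the highest library and the groups overlapped fully (log2 change 0.05, interval -0.28 to 0.38, adjusted p = 0.856). The lectin chaperones, which hold glycoproteins through their sugars, had somewhat lower values in CKO. Calr, the soluble calreticulin, was at 105, 108, 101 and 85 RPKM in CKO1 to CKO4, against 103, 124, 110 and 119 RPKM in WT1 to WT4 (log2 change -0.19, interval -0.43 to 0.05, adjusted p = 0.275). Canx, its membrane-bound relative calnexin, was at 21.2, 25.2, 24.8 and 22.5 RPKM in CKO1 to CKO4, against 26.1, 28.8, 28.9 and 23.5 RPKM in WT1 to WT4 (log2 change -0.19, interval -0.43 to 0.05, adjusted p = 0.287). After median centring both were at -0.09. Neither lectin separated the groups: WT1 lay within the CKO range for Calr and WT4 for Canx.

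The 11 enzymes of disulfide formation and exchange held the most abundant member. Pdia2, a protein disulfide isomerase enriched in pancreas, averaged 1121 ± 188 RPKM in CKO and 1071 ± 88.7 RPKM in WT, and ranked 44th of the tested genes by mean RPKM. P4hb, the main protein disulfide isomerase, was at 349, 357, 342 and 391 RPKM in CKO1 to CKO4, against 357, 342, 373 and 329 RPKM in WT1 to WT4. The interval of its log2 change, -0.17 to 0.24, was the narrowest among the members (adjusted p = 0.827).

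Higher CKO values without overlap were seen for a group of less abundant members of this class. Ero1b, the oxidase of secretory tissues that recharges PDI, was at 17.5, 15.8, 15.7 and 20 RPKM in CKO1 to CKO4, against 13.9, 13.2, 13.3 and 12.2 RPKM in WT1 to WT4 (log2 change 0.36, SE 0.11, adjusted p = 0.0675). Txndc5 was at 31.3, 37.6, 39.9 and 35.4 RPKM in CKO1 to CKO4, against 27.2, 29, 30.9 and 27.6 RPKM in WT1 to WT4 (log2 change 0.32, SE 0.11, adjusted p = 0.0867). Pdia6, which also acts on IRE1, was at 46, 49.5, 46.8 and 49.6 RPKM in CKO1 to CKO4, against 35.2, 44, 44.8 and 41.3 RPKM in WT1 to WT4 (log2 change 0.21, SE 0.11, adjusted p = 0.216). None of these 3 passed, except that Txndc5 did after median centring (adjusted p = 0.015) and with totals without acinar markers (0.0177). Ero1a, the ubiquitous and hypoxia-induced relative of Ero1b, averaged 11.1 ± 1.63 RPKM in CKO and 11.6 ± 0.92 RPKM in WT (log2 change -0.06), a sign that turned positive after median centring (0.04).

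Lower CKO values were seen for a pair of disulfide isomerases. Pdia3 (ERp57), the partner of calnexin and calreticulin, was at 41.9, 42.5, 43.2 and 34.9 RPKM in CKO1 to CKO4, against 41.6, 55, 49.9 and 53.5 RPKM in WT1 to WT4, with WT1 inside the CKO range (log2 change -0.29, SE 0.12, adjusted p = 0.141). Pdia4 (ERp72) was at 6.87, 6.69, 5.57 and 4.97 RPKM in CKO1 to CKO4, against 7.05, 10.7, 7.32 and 7.55 RPKM in WT1 to WT4 (log2 change -0.37, SE 0.15, adjusted p = 0.125). The Pdia4 groups did not overlap, but CKO1 and WT1 lay close together. After median centring the log2 change of Pdia3 was -0.19. The other enzymes of the class, Pdia5, Erp44 and Txndc11, had log2 changes of 0.24, 0.12 and 0.05.

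Fkbp11 (chromosome 15, 98724366 to 98728198, minus strand), a prolyl isomerase of secretory cells that turns proline bonds in folding chains, had the smallest p of all members. It was measured at 62.2, 63.2, 60.4 and 77 RPKM in CKO1 to CKO4, against 39.5, 42.7, 45.6 and 38.5 RPKM in WT1 to WT4. All CKO libraries lay above the highest WT library. Fkbp11 averaged 65.7 ± 7.62 RPKM in CKO and 41.6 ± 3.23 RPKM in WT (SD, n = 4 each), a log2 change of 0.64 (SE 0.11, limma adjusted p = 0.00829). The adjusted p stayed between 0.00907 and 0.0344 when any single library was left out, and was 0.0201 by limma-voom and 0.00683 after median centring.

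**Figure D2:**
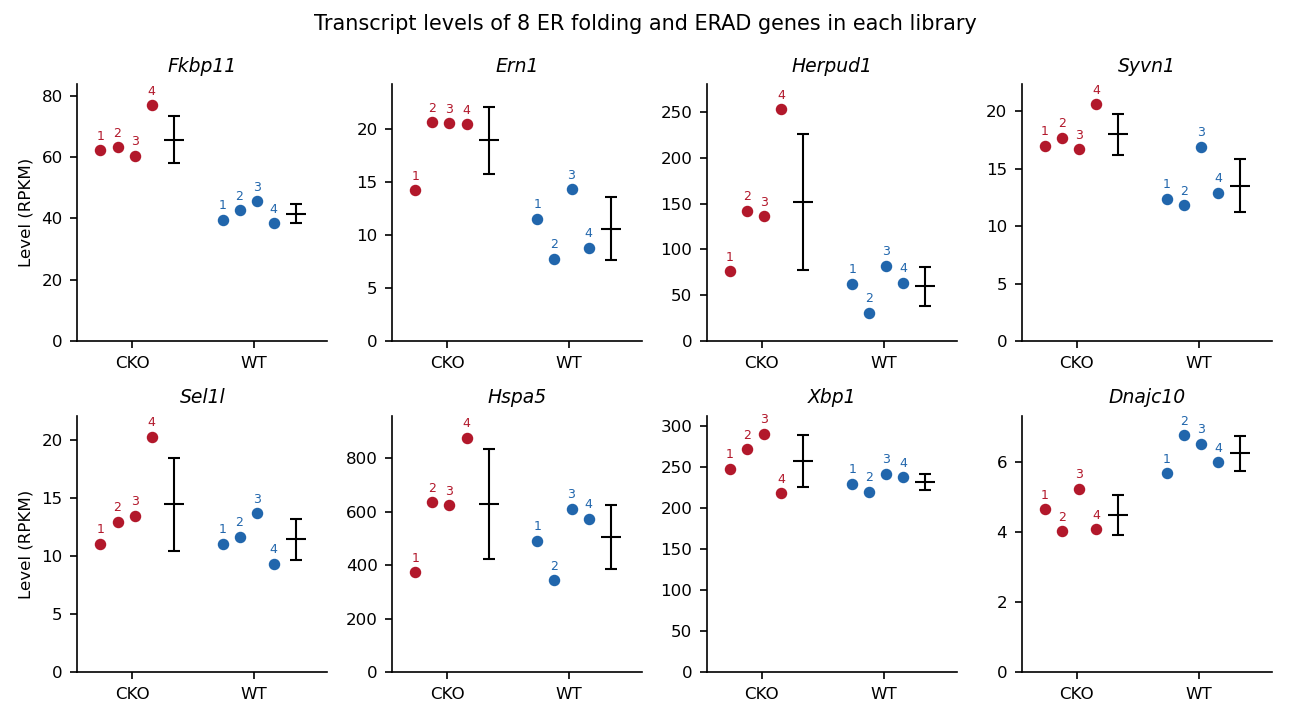
Levels in RPKM of 8 members in each library, CKO on the left and WT on the right of each panel, with replicate numbers above the points and the group mean ± SD (n = 4) beside them. Fkbp11 separates the groups fully, CKO1 lies apart from the other CKO libraries for Ern1, Herpud1 and Hspa5, and CKO4 is the highest library for Herpud1, Syvn1, Sel1l and Hspa5.

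Creld2, a stress-induced and partly secreted protein, was at 14, 14.6, 11.6 and 24.7 RPKM in CKO1 to CKO4, against 9.39, 11.9, 13.1 and 13.3 RPKM in WT1 to WT4 (log2 change 0.38, SE 0.20, adjusted p = 0.237). Without CKO4 its CKO libraries were within or just above the WT range. Manf, a secreted protective factor that binds BiP, averaged 79.1 ± 2.6 RPKM in CKO and 68.5 ± 11.7 RPKM in WT (log2 change 0.22, adjusted p = 0.271). The wide WT spread came from WT1 and WT2, at 57 and 60.1 RPKM, while WT3 and WT4 were at 80.8 and 76 RPKM.

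In ERAD, the membrane complex that moves proteins out of the ER is built from the ubiquitin ligase Syvn1 (HRD1), its partner Sel1l and the scaffold Herpud1. Herpud1 (chromosome 8, 94386438 to 94395377, plus strand), whose product is short-lived and strongly stress-induced, was at 75.8, 142, 136 and 253 RPKM in CKO1 to CKO4, against 62.3, 30.7, 82.1 and 63.4 RPKM in WT1 to WT4. Only CKO1 lay within the WT range, and CKO4 was the highest of all libraries. The log2 change was 1.29 with an interval of 0.41 to 2.17 (adjusted p = 0.0766). It passed without CKO1 (log2 change 1.58, adjusted p = 0.0327) and had adjusted p of 0.105 to 0.15 without any other single library.

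Syvn1 was at 17, 17.7, 16.7 and 20.6 RPKM in CKO1 to CKO4, against 12.4, 11.8, 16.9 and 12.9 RPKM in WT1 to WT4. WT3 alone reached the CKO range (log2 change 0.40, SE 0.13, adjusted p = 0.0766, and 0.0491 without WT3). Sel1l was at 11.1, 13, 13.5 and 20.3 RPKM in CKO1 to CKO4, against 11.1, 11.7, 13.7 and 9.36 RPKM in WT1 to WT4. Apart from CKO4, the Sel1l values of the groups lay in the same range (log2 change 0.29, interval -0.08 to 0.66, adjusted p = 0.295).

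The other ERAD members had log2 changes of -0.20 to 0.20. The derlins, which thin the membrane for export, had log2 changes of 0.15 (Derl1), -0.20 (Derl2) and 0.17 (Derl3), and Derl2 was the least abundant member, at 3.02 ± 0.557 RPKM in CKO and 3.58 ± 0.137 RPKM in WT. The EDEM proteins, which trim mannose from misfolded glycoproteins, split as well. Edem1 lay lower in CKO without overlap, at 30 ± 1.29 RPKM in CKO and 33.6 ± 2.11 RPKM in WT (log2 change -0.16, adjusted p = 0.324), while Edem2 (0.13) and Edem3 (0.20) had positive values. The Edem1 groups nearly touched, since CKO4 and WT4 were both at 31.5 RPKM after rounding. The lectin Os9 (0.16), the cytosolic ATPase Vcp (-0.06), which pulls substrates out, and its membrane anchor Selenos (-0.05) completed the class. After median centring the signs of Vcp, Selenos and Sdf2l1 turned positive, at 0.05, 0.06 and 0.07, so no direction can be given for these 3.

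Across the members, single libraries stood out. CKO4 was the highest of the 8 libraries for 20 of the 39 members, CKO3 for 6, CKO1 for 3 and CKO2 for 1, and WT2 for 5, WT3 for 3, WT4 for 1 and WT1 for 0, while WT4 was the lowest for 12 and WT1 for 10. Reads of the members made up 0.93% of the CKO4 library and 0.684% to 0.775% of the other CKO libraries, against 0.651% to 0.77% of the WT libraries. Within CKO4 the genes did not all lie high: Xbp1, Calr and Derl2 were at their lowest of all 8 libraries there, as were Pdia3 and Pdia4. The median member lay 0.17 above its 8-library mean in CKO4 on the log2 scale, where the median tested gene lay 0.15 below (-0.15). In CKO1 the corresponding medians were -0.03 for members and -0.17 for tested genes. Without CKO4 only Fkbp11 passed and the median of the members was 0.12.

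**Figure D3:**
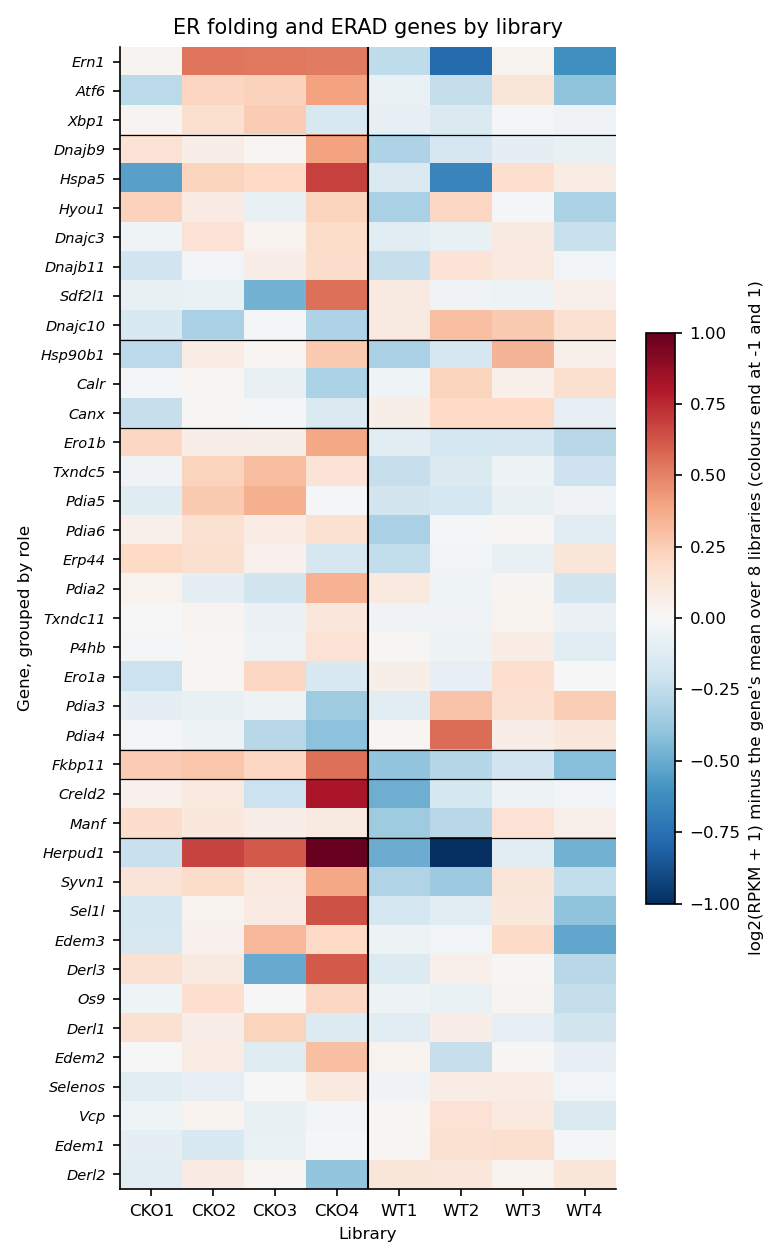
Each member's log2(RPKM + 1) in the 8 libraries minus its mean over them, CKO left and WT right of the line, grouped by role (colours end at -1 and 1). Red in the CKO4 column is strongest for Herpud1, Creld2 and Hspa5, CKO1 is blue for Hspa5, and Dnajc10, Pdia3 and Pdia4 show the reverse of the common pattern.

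Marker levels of other cells moved with some of these libraries. Summed acinar marker levels were 550831 RPKM in CKO1 and 538692 RPKM in CKO4, the highest of the 8. Hspa5 was at 375 RPKM in CKO1 and 878 RPKM in CKO4, and Herpud1 at 75.8 RPKM in CKO1 and 253 RPKM in CKO4. Of 25 tested acinar markers 3 rose and 1 fell (4 higher and 2 lower at an unadjusted p under 0.05). Their sums ran from 477653 to 550831 RPKM in CKO and from 474247 to 511750 RPKM in WT. For the marker counts here, the shares of all tested genes were 1.42% higher and 5.74% lower. At an unadjusted p under 0.05 (limma) they were 4.6% higher and 22.7% lower, and 29.6% of all tested genes had a log2 change above 0. Monocyte and macrophage markers summed to 208 to 412 RPKM in CKO and to 374 to 703 RPKM in WT. Of 13 tested monocyte and macrophage markers 2 fell, 8 were lower at an unadjusted p under 0.05, and all 13 had a log2 change below 0. Neutrophil markers summed to 14.4 to 47 RPKM in CKO and to 37.6 to 84.1 RPKM in WT, with 0 of 5 tested markers past the threshold (limma; 2 lower at an unadjusted p under 0.05). Duct markers summed to 2382 to 3784 RPKM in CKO, lowest in CKO4, and to 3661 to 3864 RPKM in WT. Most of this was Krt18 (2074 to 3209 RPKM in CKO and 2983 to 3258 RPKM in WT), so the sum mainly follows that gene. Of 7 tested duct markers 1 fell, with 5 lower at an unadjusted p under 0.05 and all 7 below 0. Islet markers summed to 1319 to 2075 RPKM in CKO and to 867 to 1662 RPKM in WT, and 1 of 12 tested rose, with 7 higher at an unadjusted p under 0.05 and all 12 above 0. Stellate cell and fibroblast markers summed to 69.3 to 108 RPKM in CKO and to 60 to 131 RPKM in WT, and adipocyte markers to 24.4 to 34.3 RPKM in CKO and to 23 to 103 RPKM in WT, highest in WT2. None of the 9 tested stellate cell and fibroblast markers and neither tested adipocyte marker passed (limma, 0 at an unadjusted p under 0.05).

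Plasma cells are rich in the same folding genes, among them Fkbp11 and Derl3. Of 14 listed B and plasma cell markers 10 were in the table and 1 was tested, and the list summed to 32 to 79.4 RPKM in CKO and to 58.3 to 98.7 RPKM in WT, most of it Sdc1, which epithelial cells also express. The defining marker Jchain ran from 0 to 0.209 RPKM in CKO and from 0.0747 to 7.21 RPKM in WT, highest in WT2. Mzb1 was at 0 in all 4 CKO libraries and at 0 to 0.722 RPKM in WT, and Tnfrsf17 was at 0 in every library except CKO4 (0.0234 RPKM). Without WT2 the log2 change of Fkbp11 was 0.66 (adjusted p = 0.0216) and that of Ern1 0.68 (0.0585). The part of B and plasma cells in the members' differences was not tested, nor was that of acinar, myeloid, neutrophil, duct and islet cells.

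The rest of the ER stress and quality control system was followed with 4 further lists of 127 genes, of which 113 were tested. Of these 113, 3 rose and 3 fell, where 1.42% of all tested genes rose and 5.74% fell. In the PERK and ATF4 arm 3 of 16 genes rose and 0 fell, with a median log2 change of 0.41 (-0.78 to 1.46). The arm did not move as 1: at an unadjusted p under 0.05 (limma), 8 genes were higher and 3 lower. Of all tested genes 4.6% and 22.7% were so. Ppp1r15a (GADD34), which restarts translation, was at 27.6, 30.9, 35.2 and 37.7 RPKM in CKO1 to CKO4, against 10.7, 12.2, 10.8 and 11.4 RPKM in WT1 to WT4 (log2 change 1.46, SE 0.12, adjusted p = 2.19e-05). Unlike Ern1, Atf6 and Hspa5, Ppp1r15a was well above the WT range in CKO1 too. The proapoptotic factor Ddit3 (CHOP) was at 2.57, 2.68, 2.48 and 2.08 RPKM in CKO1 to CKO4. In WT1 to WT4 it was at 1.03, 0.935, 1.19 and 0.877 RPKM, near the 1 RPKM of the filter. WT2 and WT4 were under it, so Ddit3 met the filter only with its CKO libraries, where it was higher. Its means differed 2.44-fold, and its log2 change of RPKM + 1 was 0.78 (SE 0.11, limma adjusted p = 0.00158). Atf3 rose 1.93-fold (adjusted p = 0.0233). Neither Ddit3 nor Atf3 overlapped between the groups, and the call of Atf3 was lost without CKO2 (0.0594) or CKO4 (0.0581). Cebpb, a factor that dimerises with CHOP, was at 22.5 RPKM in CKO1 and 46.7 to 58.4 RPKM in the other CKO libraries, against 14.8 to 25.2 RPKM in WT (adjusted p = 0.0574, and 0.00138 without CKO1).

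Other ER folding genes gave 0 calls in either direction among 38 tested, and their median of -0.11 was close to that of all genes. At an unadjusted p under 0.05 (limma), 0 were higher and 7 lower, where 4.6% and 22.7% of all tested genes were. The smallest p among them belonged to Mesd, Rcn1, Sumf1 and Qsox1 (log2 changes -0.38, -0.39, -0.31 and -0.29, adjusted p 0.0788 to 0.101). Each had all CKO libraries below all WT libraries, as had 6 of the 38 and 16.2% of all tested genes. Among 44 other ERAD genes 0 rose and 2 fell, where 1.42% of all tested genes rose and 5.74% fell. Their median was -0.05, and 4 were higher and 5 lower at an unadjusted p under 0.05 (limma). The VCP inhibitor Svip was at 0.837 ± 0.133 RPKM in CKO and 1.44 ± 0.241 RPKM in WT (log2 change -0.41, adjusted p = 0.0433). CKO2, CKO3 and CKO4 were under the 1 RPKM of the filter (0.732, 0.737 and 0.868 RPKM), so Svip was tested only because of its WT libraries. The ubiquitin ligase Rnf139 was at 3.51 ± 0.506 RPKM in CKO and 5.06 ± 0.416 RPKM in WT (log2 change -0.43, adjusted p = 0.0492). Svip and Rnf139 were both close to the threshold. Of the omissions of 1 library, Svip passed without CKO1 and Rnf139 without CKO3 and neither passed in the others, with adjusted p of up to 0.116 (Svip) and 0.138 (Rnf139) in those, and Svip did not pass after median centring (0.172).

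The ubiquitin-conjugating enzyme Ube2g2 and the deubiquitinase Usp19 had the Ern1 pattern across libraries. Ube2g2 was at 21.8 RPKM in CKO1 and 34.5 to 38.7 RPKM in the other CKO libraries, against 18.3 to 24.4 RPKM in WT (adjusted p = 0.0687, and 0.00573 without CKO1). Usp19 was at 11.1 RPKM in CKO1 and 17.6 to 19.1 RPKM in the other CKO libraries, against 9.55 to 13.7 RPKM in WT (adjusted p = 0.0807, and 0.0131 without CKO1). Where 1.42% of all tested genes rose and 5.74% fell, 0 rose and 1 fell among 15 other genes of the IRE1 and ATF6 arms. That gene, Bax, whose product promotes apoptosis and can bind IRE1, was at 9.97 ± 1.4 RPKM in CKO and 14.7 ± 0.714 RPKM in WT (log2 change -0.52, adjusted p = 0.0255), a call lost without WT1, WT2, WT3 or WT4 (up to 0.0691). Atf6b, the relative of Atf6, was higher in all CKO libraries, at 5.51 ± 0.667 RPKM in CKO and 3.95 ± 0.519 RPKM in WT (log2 change 0.40, adjusted p = 0.074). Rtcb, the ligase that joins the cut Xbp1 mRNA, was lower in all CKO libraries (log2 change -0.29, adjusted p = 0.106). Mbtps2, the protease that makes the second cut in ATF6, was at 1.52 ± 0.375 RPKM in CKO and 1.93 ± 0.429 RPKM in WT (log2 change -0.22, adjusted p = 0.351).

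**Figure D4:**
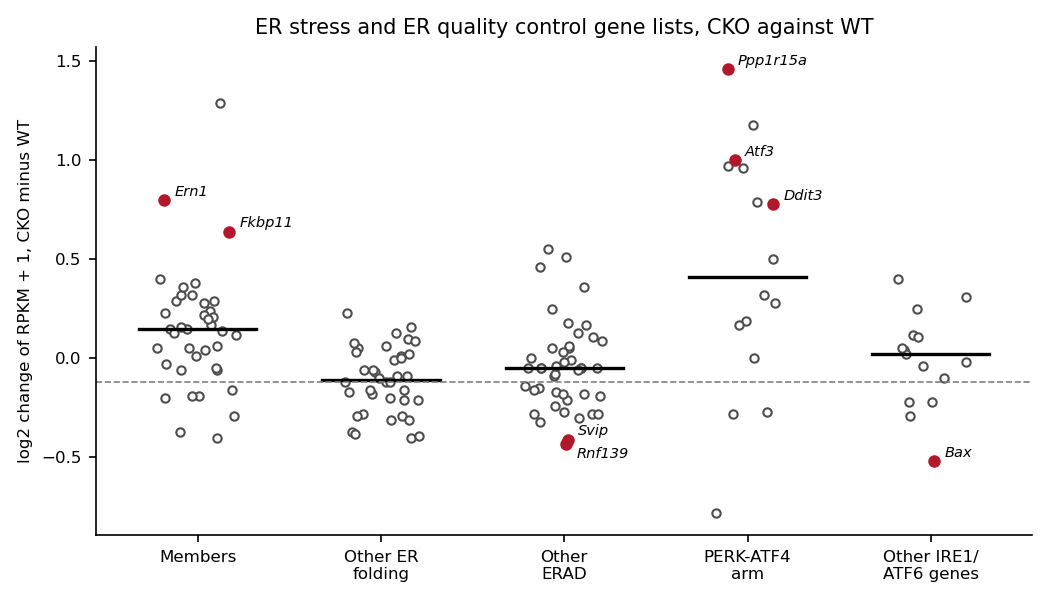
Log2 change of RPKM + 1, CKO minus WT, for each tested gene of the member list and of 4 further lists; bars are list medians, filled and named points passed an adjusted p of 0.05, and the dashed line is the median of all tested genes. The PERK-ATF4 arm has the highest median (0.41), the members lie at 0.15, and the other ER folding genes (-0.11) lie at the dashed line.

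Set beside the promoter letters above, the 10 members with an ERSE had a median log2 change of 0.19 (-0.19 to 0.40, with 0 past the threshold) and the 25 members with a window but no ERSE a median of 0.06 (-0.40 to 1.29, with 2 past the threshold). Those 25 include Herpud1 (1.29) and Dnajb11, which hold ERSE-II, and Txndc5, Txndc11 and Vcp, which hold TGACGTGG. Of the 10 members with an ERSE, 8 had a log2 change above 0, the exceptions being Calr and Canx, as had 16 of the 25 without, where 29.6% of all tested genes were above 0. For 8 members (Derl2, Manf, Pdia3, Pdia6, Syvn1, Txndc11, Txndc5 and Vcp) an exon overlaps an exon of another protein-coding gene in GENCODE M21, and reads of the partners may have been counted with them.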

How the data were processed

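RNA-seq was run on 8 mouse pancreas samples, and the authors deposited 1 table of RPKM values (reads scaled by gene length and library total) with 1 named column per sample. Its header gives no unit, so RPKM was read from the numbers: 16059 (99.94%) of the 16068 genes detected in 2 or more libraries fitted a length at which all their values were whole reads, within 0.05 reads. Such a fit alone could also arise with another length-scaled unit. The recovered reads in genes came to 100.03% to 100.1% of the recovered library totals. The genome build was mm10, per the submitters' processing notes. No source used here gives the aligner, counter, annotation, filters or use of strand. Also, 1 unnamed column was not used.

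From these values, limma 3.58.1 (R 4.3.3) was fitted to log2(RPKM + 1) on group alone, with robust variances that follow mean level. Genes at 1 RPKM or more in at least 4 libraries were tested, and p-values were adjusted by Benjamini-Hochberg over all 8513 of them (threshold 0.05). Intervals are 95% intervals of the log2 change from that fit. Reads and gene lengths were recovered with Python 3.11.15, NumPy 2.4.6 and pandas 2.3.3. Positions are from GENCODE M21 and promoters from RefSeq on GRCm38.p6, the assembly behind mm10. The steps were tested on simulated data.

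The genes and lists were chosen with earlier results of these data known. Values in every library are given for members past the threshold, the sensors Ern1 and Atf6 with Xbp1, the main folding proteins (Hspa5, Hsp90b1, Calr, Canx, P4hb), Herpud1, Syvn1, Sel1l, and the 8 other members with the smallest unadjusted p. Of each further list, the 4 genes with the smallest p and any past the threshold are named. Other settings were a pseudocount of 0.1, no filter, no mean trend, median centring, totals without acinar markers, limma-voom on recovered reads, a replicate block and leaving out each library.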

Additional observations from a re-analysis of the deposited data

Results flagged for a closer look

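In 5 of the 78 groups of 4 libraries formed by the 39 members, 1 library stood far from the other 3 of its group by Dixon's criterion at the 95% level, and chance alone flags about 1 group in 20. Ern1 was at 14.2 RPKM in CKO1, where the other CKO libraries were at 20.4 to 20.6 RPKM. Fkbp11 was at 77 RPKM in CKO4, where the others were at 60.4 to 63.2 RPKM. Pdia3 was at 34.9 RPKM in CKO4, below 41.9 to 43.2 RPKM in the others. Pdia4 was at 10.7 RPKM in WT2, above 7.05 to 7.55 RPKM in the other WT libraries, and Derl2 was at 3.38 RPKM in WT3, below 3.62 to 3.66 RPKM. CKO4 gave 2 of the 5, and CKO1, WT2 and WT3 gave 1 each.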

How the results depend on the processing

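Over all genes the 121 higher and 489 lower calls became 305 and 267 after median centring, 216 higher with totals without acinar markers, and 323 lower with limma-voom. Leaving out 1 library at a time gave 47 to 242 higher genes (242 without CKO1, 47 without CKO2, 63 without CKO4, 55 without WT1, 68 without WT2, 59 without WT4) and 130 to 600 lower genes (181 without CKO2, 204 without CKO4, 130 without WT1, 177 without WT2, 210 without WT3, 195 without WT4). Of the members, 1 rose with no filter on low values (Fkbp11, in place of 2), and 1 to 3 rose and 0 to 1 fell when a library was left out. The pathway lists gave 9 higher genes after median centring, and 2 to 11 higher (11 without CKO1) and 0 to 3 lower without 1 library (1 without CKO2 or CKO4, 0 without WT1, WT2, WT3 or WT4). The median log2 change of the members ran from 0.11 to 0.26 over all settings. The sign turned for these members: without CKO4, Dnajb11 (-0.04), Hsp90b1 (-0.03), P4hb (-0.003), Pdia2 (-0.05) and Derl3 (-0.003); without CKO3, Dnajb11 (-0.01) and Sdf2l1 (0.12); without WT1, Dnajb11 (-0.06) and Hsp90b1 (-0.05); after median centring, Sdf2l1 (0.07), Ero1a (0.04), Vcp (0.05) and Selenos (0.06); with totals without acinar markers, Sdf2l1 (0.03), Vcp (0.01) and Selenos (0.01). With 1 library left out, Dnajb11 ran from -0.06 to 0.08, Sdf2l1 from -0.22 to 0.12, Hsp90b1 from -0.05 to 0.17 and Derl3 from -0.003 to 0.37. The cause was not tested, though fewer samples enter each omission. With the replicate number as a block, 110 genes were higher and 438 lower, and of the members 2 rose. The pathway lists then gave 3 higher and 2 lower genes, and Svip (adjusted p = 0.0649) and Rnf139 (0.0573) did not pass. Deviations of same-numbered libraries had correlations of -0.123, -0.315, 0.142 and 0.033 for numbers 1 to 4. Whether the samples were paired by number was not tested.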
